A study of Mus musculus with 12 samples.

Results

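The 37 genes described here encode the machinery of glucose breakdown and the response to low oxygen. They were listed by symbol: glucose transporters, glycolytic enzymes, lactate enzymes and transporters, pyruvate dehydrogenase kinases, hypoxia-inducible factors, oxygen sensors and targets of those factors. A gene was a member when a probe of the array carried its symbol or an older alias, and its brightest probe was used. By this rule 36 of the 37 genes had a probe, out of 27962 gene names on the array, with 63 of its 41174 probes. No probe was named Gapdh. Of the 36, 32 were bright enough to be tested. The other 4, the glucose transporter Slc2a3, the neuronal enolase Eno2, the oxygen-regulated factor Epas1 and the vasodilator peptide gene Adm, were not well above background on all 3 arrays of any group.

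Glycolysis splits glucose into pyruvate, and pyruvate is either reduced to lactate and exported or burned in mitochondria, a choice gated by the pyruvate dehydrogenase kinases. When oxygen is short, prolyl hydroxylases such as Egln1 and Egln3 no longer mark the factor Hif1a for destruction, and Hif1a then raises the transcription of transporters, nearly every glycolytic enzyme and targets such as Car9, a membrane carbonic anhydrase that acidifies the outside of the cell. Rspo2, a secreted R-spondin, amplifies signaling by Wnt proteins such as Wnt3a, which act through β-catenin and Tcf/Lef factors at many of their target genes.

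C57MG cells, a mouse mammary epithelial line, were treated for 24 h in plain medium with 100 ng/ml recombinant human Rspo2, 100 ng/ml recombinant mouse Wnt3a, both proteins, or the carrier bovine serum albumin (BSA). Each group had 3 monolayers, and each RNA was hybridized to its own 1-color array, 12 arrays in all. The cells are 1 line, and the labels name no genetic alteration and no change of oxygen in any group. Markers of cell types were checked against that label. With BSA, 4 of 6 basal markers (Acta2, Krt14, Krt5 and Trp63, not Cnn1 and Oxtr) and 5 of 6 mesenchymal markers (Col1a1, Col1a2, Fn1, Pdgfra and Vim, not Thy1) were detected, that is well above background, on each of the 3 arrays. Of 7 luminal markers this held for Krt8, whereas Cdh1 and Elf5 were above background on 0 of 3 arrays and Krt18, Krt19, Epcam and Cldn4 on 1 of 3. It also held for 1 of 4 adipocyte markers (Fabp4), 1 of 3 endothelial markers (Cdh5) and 2 of 3 leukocyte markers (Cd3e and Cd68), with Ptprc, Kdr, Plin1 and Cidec above background on 0 of 3. Any 2 arrays correlated at 0.989 to 0.996 within a group and 0.977 to 0.993 between groups. The arrays lay on 3 slides that largely followed the groups: slide 1 held all BSA arrays and Rspo2 array 1, slide 2 the other Rspo2 arrays and Wnt3a arrays 1 and 2, and slide 3 all combination arrays and Wnt3a array 3. BSA therefore shared no slide with Wnt3a or with both proteins, and for these groups treatment and slide cannot be fully told apart.

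Levels are log2 intensity minus the log2 of the array's 75th percentile, so that a probe at that percentile has a level of 0, and a change is a difference of mean levels on that log2 scale. A gene is said to have risen or fallen at an adjusted p under 0.05 in limma, with p-values adjusted over all 22751 probes tested. In a culture, less RNA per cell and fewer cells that make it cannot be told apart, and markers moved with the treatments. With the combination the basal markers Krt14 and Acta2 rose, at 1.24 (adjusted p = 8.28e-06) and 0.78 (adjusted p = 7.26e-05), while Trp63, at -0.40 (adjusted p = 0.0143), mesenchymal Pdgfra, at -1.37 (adjusted p = 8.77e-06), and luminal Krt8, at -1.15 (adjusted p = 0.000366), fell. The summed level of a list, in multiples of the 75th percentile, was 132 to 140 on the BSA arrays and 220 to 257 on those of the combination for the basal markers, 242 to 255 and 244 to 253 for the mesenchymal markers, and 0.148 to 0.316 and 0.078 to 0.226 for the luminal markers. Acta2 made up most of the basal sum, with mean levels of 6.96 and 7.75 beside 3.35 and 4.59 for Krt14, the next highest. The luminal sum includes markers not above background. The part of these marker shifts in the results was not tested. The 3 comparisons with BSA share the same BSA arrays.

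On the scaling used here, 2 to 9 of the 32 tested members passed the threshold in each comparison, and Car9 was the only one to change at least 2-fold. With Rspo2 alone, 2 of the 32 tested members rose and 0 fell, or 6.25%, while 16.8% of all probes changed, 10.9% up and 5.92% down. With Wnt3a alone, 3 rose and 4 fell, or 21.9%, against 31.5% of all probes, 18.3% up and 13.2% down. With the combination, 2 rose and 7 fell, or 28.1%, against 39.2% of all probes, 21.9% up and 17.3% down. Between the combination and Wnt3a, 0 rose and 2 fell, or 6.25%, against 4.27% of all probes changed and 2.49% lower. For the interaction, the change with both proteins less the sum of the changes with each, 3 members were called, or 9.38%, against 8.90% of all probes. All 3 interactions were negative, beside 5.31% of all probes with a negative one. At an unadjusted p under 0.05, 9 members (28.1%) were higher and 2 (6.25%) lower with Rspo2, against 21.6% and 13.4% of all probes, and 0 were higher and 4 (12.5%) lower with the combination than with Wnt3a, against 9.86% and 8.58%. The median change of the 32 members was 0.064 with Rspo2, 0.063 with Wnt3a and -0.017 with the combination, beside 0.013, -0.00027 and 0.043 over all probes. On this scaling the share of members called was below that of all probes in the 3 comparisons with BSA and near it in the other 2. Fitted with a term for slide, 0, 0 and 1 members passed against BSA, beside 0.431%, 0.796% and 2.51% of all probes.

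**Figure D1:**
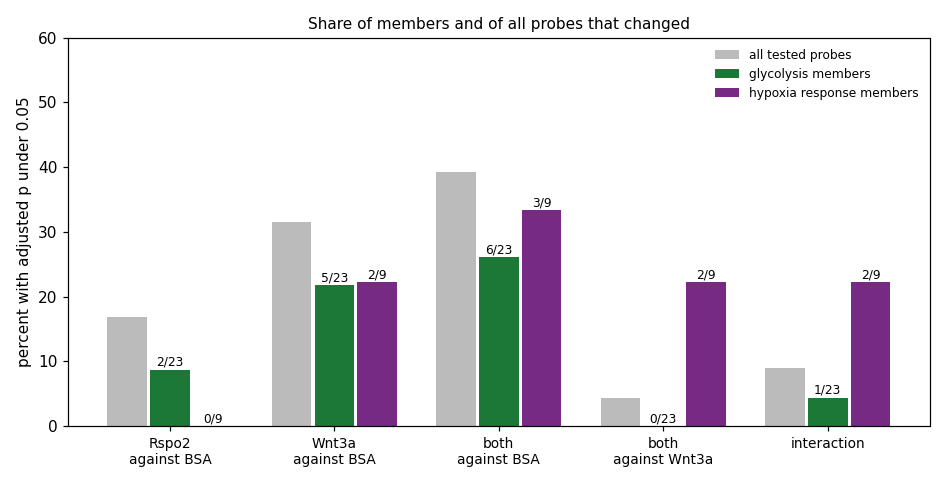
Percent of probes or members with an adjusted p under 0.05 (vertical axis) in each of the 5 comparisons, for all 22751 tested probes, the 23 tested glycolysis members and the 9 tested hypoxia response members. The numbers above the bars give members changed over members tested. The glycolysis bars lie below the bar of all probes in all 5 comparisons, while 2 of 9 hypoxia response members, Car9 and Egln3, were called both between the combination and Wnt3a and for the interaction.

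These counts depended on how the arrays were scaled, and bright and dim probes shifted differently against BSA. The 297 tested probes with a mean intensity of at least 65536 units had a median change of 0.32 with Rspo2, 0.42 with Wnt3a and 0.35 with the combination. The 7 members that bright, Aldoa, Tpi1, Pgk1, Pgam1, Eno1, Pkm2 and Ldha, had medians of 0.26, 0.18 and 0.13. After quantile normalization, which removes such a shift, 1 member rose and 3 fell with Rspo2, 3 rose and 7 fell with Wnt3a, and 2 rose and 14 fell with the combination. The members that fell were 9.38%, 21.9% and 43.8% of those tested, beside 5.35%, 9.84% and 16.9% of all probes, and those that rose 3.12%, 9.38% and 6.25%, beside 6.72%, 14.1% and 19.6%. In all, 12.5%, 31.2% and 50% of the members were then called, against 12.1%, 24% and 36.5% of all probes, so that the share of members lay above that of all probes with Wnt3a and with the combination. The 14 lower with the combination included all 7 members that fell without it, and Gpi1, Aldoa, Pgk1, Pgam1, Ldha, Pdk3 and Bnip3. With the 75th percentile taken over probes above background on all arrays, the counts were 1 up and 2 down, 2 up and 5 down, and 1 up and 10 down. The falls were 6.25%, 15.6% and 31.2% of the members, beside 10.2%, 21.3% and 23.6% of all probes, and the rises 3.12%, 6.25% and 3.12%, beside 5.05%, 11.7% and 14.9%. Which scaling is the right one for these arrays was not tested.

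**Figure D2:**
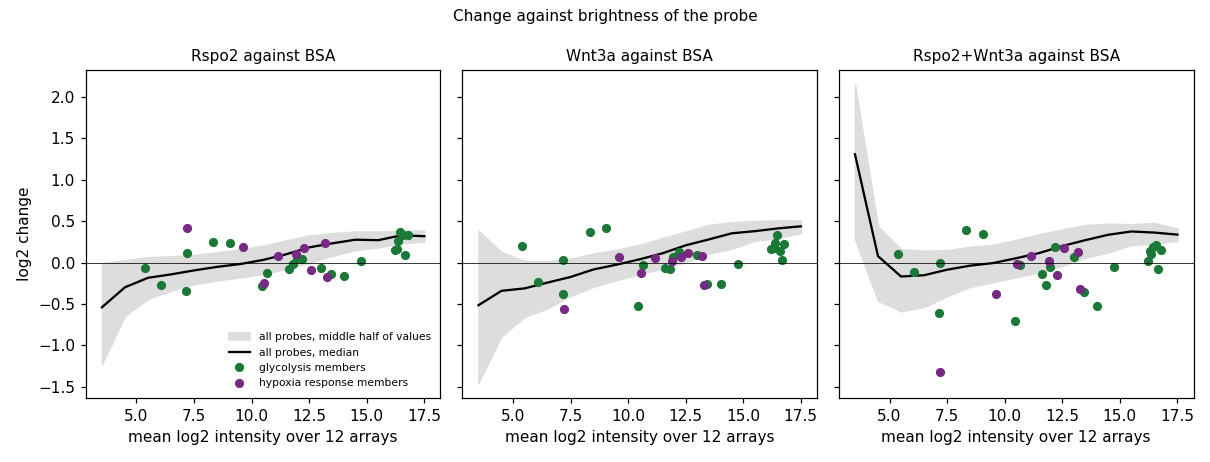
Log2 change against BSA (vertical axis) by the mean log2 intensity of the probe over the 12 arrays (horizontal axis) for the tested members in each treatment. The line gives the median and the band the lower to the upper quartile of all tested probes in steps of 1 log2 unit. The median of all probes is higher among bright probes than among those of middle brightness. The 7 brightest members lie below the median of their step with Wnt3a and with the combination, and with Rspo2 Tpi1, Eno1 and Ldha lie just above it but below the upper quartile.

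The largest change of any member was the fall of Car9, the carbonic anhydrase, with the combination. Its level was -2.47, -2.29 and -2.16 with BSA, -1.93, -1.65 and -2.07 with Rspo2, -3.11, -2.94 and -2.55 with Wnt3a and -3.65, -3.61 and -3.62 with both. The 3 arrays of the combination were the lowest of all and nearly identical, the Wnt3a arrays lay next, and the Rspo2 arrays all lay above the BSA arrays, so that no 2 groups overlapped. The change was -1.32 ± 0.15 (SE, adjusted p = 9.30e-05) with the combination, a 2.5-fold fall, where 3.79% of all probes fell at least 2-fold. It was -0.56 ± 0.15 (SE, adjusted p = 0.0164) with Wnt3a. With Rspo2 the difference was 0.42 ± 0.15 (SE, adjusted p = 0.0727) and did not pass the threshold. The difference between the combination and Wnt3a was -0.76 ± 0.15 (SE, adjusted p = 0.0159), and the interaction was -1.18 ± 0.21 (SE, adjusted p = 0.0113), where 0.651% of all probes had a negative interaction of at least 2-fold. The Rspo2 difference was thus positive without Wnt3a, though not past the threshold, and negative with it. The interaction tests whether these 2 differences are unequal, not whether their signs are opposite.

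Car9 also differed within slides. On slide 1, Rspo2 array 1 was 0.37 above the mean of BSA. On slide 2, the Wnt3a arrays were 1.16 below the Rspo2 arrays, and on slide 3 the combination was 1.08 below Wnt3a array 3. A fit with slide as a term adds up such within-slide differences. It links the combination to BSA only through Wnt3a array 3 and Rspo2 array 1, so it is no separate evidence. It gave a change with the combination of -1.87 (adjusted p = 0.014) and a difference between the combination and Wnt3a of -1.08 (adjusted p = 0.0208). The interaction was then -1.45 (adjusted p = 0.0405) and the Wnt3a change -0.79 (adjusted p = 0.179). In that fit the share of all probes called fell to 2.51%, 1.38%, 0.743% and 0.796% in the same order. After quantile normalization the Wnt3a change was -0.35 (adjusted p = 0.125), and the call was lost too with normexp background correction, without a filter on dim probes and by the methods' t-test, adjusted or not. It was also lost without BSA array 3, at -0.49 (adjusted p = 0.0614), without Wnt3a array 1, at -0.44 (adjusted p = 0.0532), and without Wnt3a array 2, at -0.52 (adjusted p = 0.0571). That between the combination and Wnt3a was lost without combination array 2, at -0.77 (adjusted p = 0.0603), or 3, at -0.76 (adjusted p = 0.0531). Leaving out any 1 array kept the calls with the combination against BSA, with changes of -1.40 to -1.25, and for the interaction. With normexp background correction the call with the combination against BSA was lost (limma adjusted p = 0.0776). The calls between the combination and Wnt3a and for the interaction were lost there too. Both were also lost without a filter on dim probes and by the methods' adjusted test. The call between the combination and Wnt3a was lost as well with only the arrays of the groups compared.

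Egln3, the oxygen-sensing prolyl hydroxylase that is itself induced by hypoxia, fell with the combination but not with Wnt3a. Its level was -0.20, -0.14 and -0.35 with BSA, -0.052, -0.0048 and -0.075 with Rspo2, -0.27, -0.17 and -0.047 with Wnt3a and -0.58, -0.63 and -0.63 with both. The 3 arrays of the combination lay below the other 9, Wnt3a overlapped BSA, and the Rspo2 arrays were all above the BSA arrays. The change was -0.38 ± 0.081 (SE, adjusted p = 0.00403) with the combination, 0.07 ± 0.081 (SE, adjusted p = 0.548) with Wnt3a and 0.19 ± 0.081 (SE, adjusted p = 0.128) with Rspo2. The difference between the combination and Wnt3a was -0.45 ± 0.081 (SE, adjusted p = 0.00979), and the interaction was -0.64 ± 0.12 (SE, adjusted p = 0.0119). On slide 3, the combination was 0.57 below Wnt3a array 3. The fit with slide as a term took that same difference for the combination and Wnt3a, -0.57 (adjusted p = 0.048). It gave a change from BSA of -0.57 (adjusted p = 0.172) and an interaction of -0.75 (adjusted p = 0.0799). Without combination array 2, the difference from Wnt3a was -0.44 (adjusted p = 0.0529). Its sister enzyme Egln1, the main oxygen sensor, gave -0.24 (adjusted p = 0.0785), -0.12 (adjusted p = 0.304) and -0.023 (adjusted p = 0.859) with Rspo2, Wnt3a and the combination. A second, dimmer probe of Egln1 passed the threshold with Wnt3a, at -0.23 (adjusted p = 0.0482).

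P4ha2, which encodes a catalytic subunit of the enzyme that hydroxylates collagen prolines, was lower with Wnt3a and with the combination. Its level was 3.69, 3.60 and 3.52 with BSA, 3.47, 3.53 and 3.29 with Rspo2, 3.31, 3.44 and 3.26 with Wnt3a and 3.21, 3.31 and 3.34 with both. Neither the Wnt3a arrays nor those of the combination overlapped BSA, while 1 Rspo2 array did. The change was -0.27 ± 0.088 (SE, adjusted p = 0.0406) with Wnt3a and -0.32 ± 0.088 (SE, adjusted p = 0.0157) with the combination, and -0.14 (adjusted p = 0.805) for the latter with slide as a term. Leaving out 1 array ended the Wnt3a call for 7 of the 12 arrays (all 3 BSA arrays, Rspo2 array 1, Wnt3a arrays 1 and 3, and combination array 2), with changes of -0.22 at the smallest and adjusted p up to 0.124, and the call with the combination without BSA array 1, at -0.27 (adjusted p = 0.0559), or combination array 1, at -0.28 (adjusted p = 0.0606). After quantile normalization both falls were larger, -0.50 (adjusted p = 0.00666) and -0.54 (adjusted p = 0.00249).

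The other hypoxia genes moved less. Hif1a, the oxygen-regulated subunit of the main hypoxia-inducible factor, had changes of -0.084 (adjusted p = 0.512), 0.12 (adjusted p = 0.315) and 0.18 (adjusted p = 0.126) with Rspo2, Wnt3a and the combination. Bnip3 and Bnip3l, which direct mitochondria to autophagy, had -0.15 (adjusted p = 0.224) and 0.13 (adjusted p = 0.504) with the combination. The collagen hydroxylase P4ha1 had 0.015 (adjusted p = 0.905) and the stress-response gene Ndrg1 0.078 (adjusted p = 0.571). Bnip3 passed the threshold for a fall with the combination after quantile normalization, at -0.30 (adjusted p = 0.0155). Of the 9 tested hypoxia response members, 3 fell with the combination, 0 rose and 6 did not pass the test, where 17.3% of all probes fell and 21.9% rose.

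**Figure D3:**
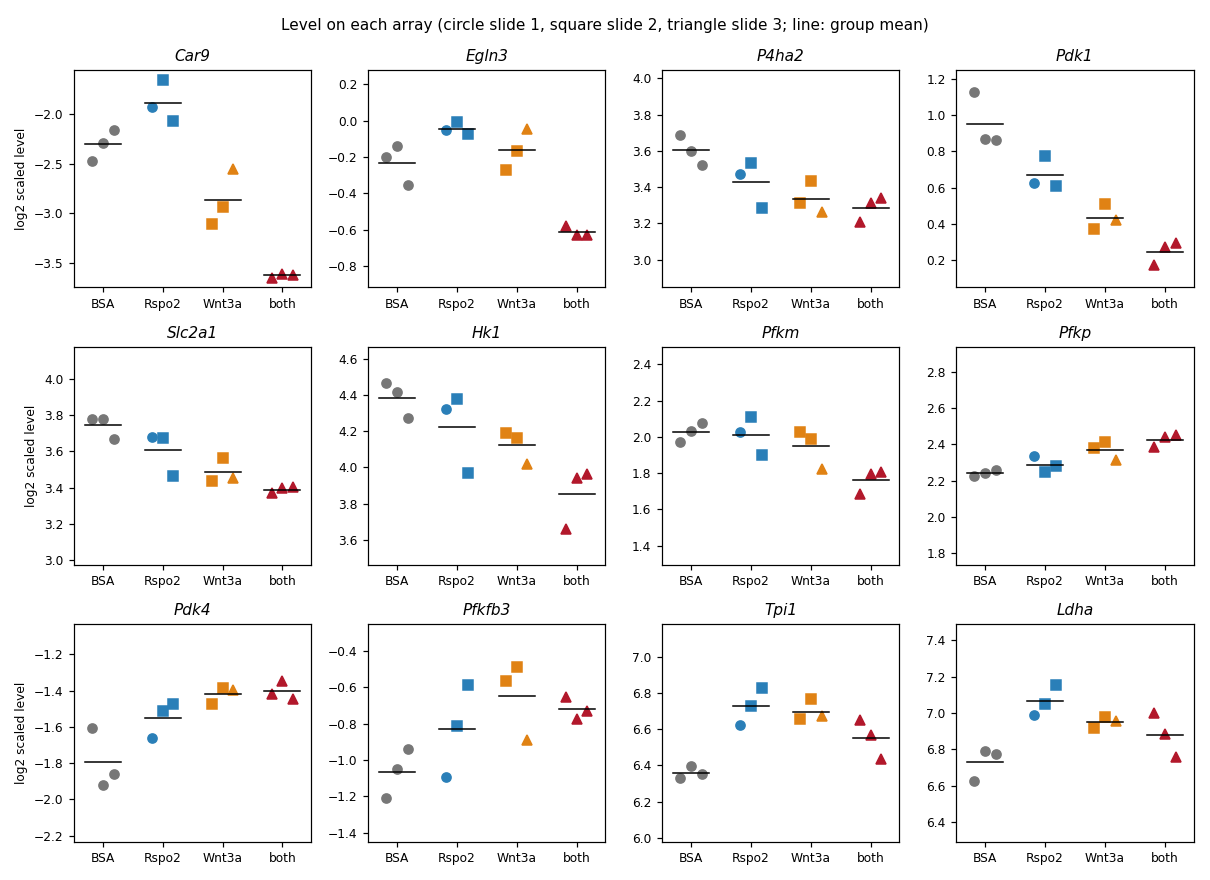
Level on each array (vertical axis, log2 intensity minus that of the array's 75th percentile, with axes that differ between panels) of the 12 members called against BSA in at least 1 comparison, for the 4 treatments. Each symbol is 1 array, its shape the slide, and the line the group mean. Car9 and Egln3 are lowest on all 3 arrays of the combination, Pdk1 steps down from BSA to the combination, and Tpi1 and Ldha are highest in mean with Rspo2.

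To show the regulatory sequence of these genes, the RefSeq sequence of the 250 bases before the annotated start (build GRCm38.p6) was searched for the core of the hypoxia response element, ACGTG or GCGTG, and for the Tcf/Lef letters CTTTGAA or CTTTGAT, on both strands, and matches of 1 motif may overlap. Promoters were found for 33 of the 37 genes, with 47 windows. The hypoxia core was in 38 of these windows, or 80.9%, and in 38.6% of all 32851 windows of 27025 genes, and the stricter ACGTG was in 48.9% and 16.6%. The windows of the members were also richer in G and C, with a median of 61.6% against 52.4%, and the part of that in the difference was not tested. The Tcf/Lef letters were in 7.48% of all windows and in the window of 1 member, Car9. Shown are Car9, Egln3, Pdk1 and Slc2a1, which fell with the combination, and Bnip3, which holds 5 matches of the hypoxia core and did not pass the test. Capitals mark the motifs or their reverse complements, 5′ to 3′ on the strand of the gene.
Car9 (chr4:43506776-43507025, plus strand): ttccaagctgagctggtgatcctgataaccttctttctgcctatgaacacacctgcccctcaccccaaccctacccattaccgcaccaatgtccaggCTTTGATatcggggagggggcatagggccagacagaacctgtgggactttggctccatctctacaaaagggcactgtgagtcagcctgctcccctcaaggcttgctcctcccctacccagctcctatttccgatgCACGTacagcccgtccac
Egln3 (chr12:54203875-54204124, minus strand): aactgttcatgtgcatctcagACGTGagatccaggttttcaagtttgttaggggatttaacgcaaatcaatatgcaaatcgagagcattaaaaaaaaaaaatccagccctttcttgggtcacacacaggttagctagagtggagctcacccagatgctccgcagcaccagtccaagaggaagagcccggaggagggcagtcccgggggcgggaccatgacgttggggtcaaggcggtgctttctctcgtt
Pdk1, upstream start (chr2:71872974-71873223, plus strand): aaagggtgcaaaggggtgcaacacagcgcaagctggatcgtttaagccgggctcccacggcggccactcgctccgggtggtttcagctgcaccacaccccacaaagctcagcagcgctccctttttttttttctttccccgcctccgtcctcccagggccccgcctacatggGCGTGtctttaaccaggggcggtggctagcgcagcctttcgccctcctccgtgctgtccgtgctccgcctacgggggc
Slc2a1 (chr4:119108495-119108744, plus strand): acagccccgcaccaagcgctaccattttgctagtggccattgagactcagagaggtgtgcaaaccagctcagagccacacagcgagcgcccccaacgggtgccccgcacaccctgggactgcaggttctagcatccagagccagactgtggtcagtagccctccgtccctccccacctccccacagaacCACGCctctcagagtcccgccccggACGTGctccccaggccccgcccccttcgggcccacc
Bnip3 (chr7:138909507-138909756, minus strand): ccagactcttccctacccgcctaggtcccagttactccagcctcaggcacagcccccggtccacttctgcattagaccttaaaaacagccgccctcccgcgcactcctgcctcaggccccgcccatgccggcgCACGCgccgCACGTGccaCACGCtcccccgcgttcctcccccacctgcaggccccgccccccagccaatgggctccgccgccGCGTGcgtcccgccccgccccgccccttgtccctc
In Car9 the Tcf/Lef letters begin 153 bases and the hypoxia core 18 bases before the start. The hypoxia core begins 229 bases before the start in Egln3, 78 in Pdk1, and 61 and 36 in Slc2a1. A second window of Pdk1 held neither motif. Members with the core thus fell, rose (Pdk4, 71 bases before its start) or did not pass the test, and a match of letters does not show that a factor binds there.

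Among the genes of glucose uptake and breakdown, the transporter Slc2a1 and, by its brightest probe, the hexokinase Hk1 fell with the combination. Slc2a1, the glucose transporter of most dividing cells, had levels of 3.78, 3.78 and 3.67 with BSA, 3.68, 3.67 and 3.46 with Rspo2, 3.44, 3.56 and 3.45 with Wnt3a and 3.37, 3.40 and 3.40 with both. All Wnt3a and combination arrays lay below all BSA arrays, and the Rspo2 arrays overlapped both BSA and Wnt3a. The change was -0.26 ± 0.08 (SE, adjusted p = 0.0306) with Wnt3a and -0.35 ± 0.08 (SE, adjusted p = 0.00552) with the combination. After quantile normalization it was -0.33 (adjusted p = 0.0435), -0.51 (adjusted p = 0.00388) and -0.59 (adjusted p = 0.000779) with Rspo2, Wnt3a and both, and with slide as a term the last was -0.19 (adjusted p = 0.692). The Wnt3a call was lost without BSA array 1 or 2 or Wnt3a array 1 or 3, with adjusted p up to 0.092 and changes of -0.24.

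Hk1, the hexokinase that traps glucose as its phosphate, had levels of 4.47, 4.41 and 4.27 with BSA, 4.32, 4.38 and 3.97 with Rspo2, 4.19, 4.16 and 4.02 with Wnt3a and 3.66, 3.94 and 3.96 with both. The arrays of the combination were below all others, though combination array 3 lay only just below Rspo2 array 3. Those of Rspo2 spread from the BSA range to below that of Wnt3a. The change with the combination was -0.53 ± 0.12 (SE, adjusted p = 0.00666), and -0.22 (adjusted p = 0.774) with slide as a term. Its next brightest probes gave -0.36 (adjusted p = 0.192) and -0.38 (adjusted p = 0.192), lower but past no threshold. Hk2, the inducible hexokinase, stayed within 0.75 to 0.96 with BSA and 0.76 to 0.83 with the combination, a difference of -0.026 (adjusted p = 0.82).

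The subunits of phosphofructokinase, which sets the pace of the pathway, differed among themselves. Pfkm, the muscle-type subunit, had levels of 1.97, 2.03 and 2.08 with BSA, 2.03, 2.11 and 1.90 with Rspo2, 2.03, 1.99 and 1.83 with Wnt3a and 1.68, 1.80 and 1.81 with both. Only the arrays of the combination lay apart from BSA, and the change was -0.27 ± 0.084 (SE, adjusted p = 0.0278). It was lost without BSA array 2 or 3 or combination array 1 or 2 (adjusted p 0.0587 to 0.0973, changes of -0.28 to -0.23) and was -0.059 (adjusted p = 0.915) with slide as a term. Pfkp, the platelet-type subunit, had levels of 2.22, 2.24 and 2.26, 2.34, 2.25 and 2.28, 2.38, 2.41 and 2.32 and 2.38, 2.44 and 2.45 in the same order of groups. The 3 arrays of the combination were above all BSA arrays, by 0.18 ± 0.064 (SE, adjusted p = 0.043). The direction of Pfkp was not settled: its second probe gave -0.16 (adjusted p = 0.298) and the third -0.49 (adjusted p = 0.0392), a fall, quantile normalization gave 0.04 (adjusted p = 0.686), and the call was kept without Rspo2 array 3, Wnt3a array 2 or Wnt3a array 3 but lost without any 1 of the other 9 arrays (adjusted p up to 0.121). Pfkl, the liver-type subunit, had -0.14 (adjusted p = 0.279) with the combination. Pfkfb3, whose product makes the activator of phosphofructokinase, ranged over -1.21 to -0.94 with BSA and -0.89 to -0.49 with Wnt3a, a rise of 0.42 ± 0.14 (SE, adjusted p = 0.042). That call was kept without Rspo2 array 1, Rspo2 array 3 or Wnt3a array 3 and lost without any 1 of the other 9 arrays (adjusted p up to 0.143), and the combination gave 0.35 (adjusted p = 0.0705).

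The enzymes of the lower pathway were among the brightest probes of the arrays. Tpi1, triosephosphate isomerase, had levels of 6.33 to 6.40 on the BSA arrays. The Rspo2 arrays spanned 6.62 to 6.83, the Wnt3a arrays 6.65 to 6.77 and the arrays of the combination 6.44 to 6.65. Every treated array was above every BSA array. The rise was 0.37 ± 0.081 (SE, adjusted p = 0.0211) with Rspo2 and 0.34 ± 0.081 (SE, adjusted p = 0.0107) with Wnt3a, the combination gave 0.19 ± 0.081 (SE, adjusted p = 0.0875), and the interaction was -0.51 ± 0.11 (SE, adjusted p = 0.0264). The median of all probes of like brightness was 0.32, 0.42, 0.35 and, for the interaction, -0.38. After quantile normalization the Rspo2, Wnt3a and interaction values of Tpi1 were 0.078 (adjusted p = 0.426), -0.033 (adjusted p = 0.738) and -0.17 (adjusted p = 0.262), so that the Wnt3a change turned its sign. The Rspo2 call was lost without any 1 of the BSA arrays or without Rspo2 array 2 or 3 (adjusted p up to 0.0795), and the interaction was lost without those 5 arrays, Wnt3a array 2 or combination array 2 or 3 (adjusted p up to 0.0668).

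Aldoa, Pgk1, Pgam1, Eno1 and Pkm2 encode the enzymes that carry the split sugar to pyruvate, with Gapdh between Tpi1 and Pgk1. With Rspo2 their changes were 0.087, 0.16, 0.26, 0.33 and 0.17, with Wnt3a 0.029, 0.17, 0.23, 0.14 and 0.18, and with the combination -0.073, 0.022, 0.11, 0.22 and 0.13. None of these passed the threshold, and the adjusted p closest to it was 0.0665, for Pgam1 with Rspo2. A second probe of Aldoa, almost as bright as the first, did pass it, at 0.28 (adjusted p = 0.0331) with Rspo2 and 0.23 (adjusted p = 0.0363) with Wnt3a, with an interaction of -0.48 (adjusted p = 0.0246). After quantile normalization Aldoa, Pgk1 and Pgam1 fell with the combination, with changes of -0.44 (adjusted p = 0.00163), -0.31 (adjusted p = 0.00732) and -0.22 (adjusted p = 0.0437). Eno1 shares nearly all of its sequence with the copy Eno1b, and the probe may measure both. Gpi1, which turns glucose phosphate into fructose phosphate, had -0.051 (adjusted p = 0.577) with the combination and -0.31 (adjusted p = 0.00588) after quantile normalization, and Aldoc, a brain-type aldolase, -0.61 (adjusted p = 0.0666) with BSA levels that spread over -2.81 to -1.81.

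No probe was named Gapdh, and the probes tied to it did not move alike. A probe under the name LOC14433, which carries the gene number of Gapdh, was dim, with a mean of 244 units. It changed by -0.25 (adjusted p = 0.105) with Rspo2 and -0.078 (adjusted p = 0.595) with Wnt3a, rose by 0.30 (adjusted p = 0.0378) with the combination, and had an interaction of 0.63 (adjusted p = 0.0275). A further 12 tested probes were described as glyceraldehyde-3-phosphate dehydrogenase or as similar to it, with mean intensities of 24521 to 203120 units. Their changes ranged from 0.29 to 0.47 with Rspo2, 0.19 to 0.49 with Wnt3a and 0.25 to 0.48 with the combination. All 12 were higher in each. Of them 6, 9 and 9 passed the threshold, beside 32.7%, 78.1% and 63.6% of the 297 probes of at least 65536 units. The medians of the 12 probes, 0.37, 0.34 and 0.36, lie close to the 0.32, 0.42 and 0.35 of those 297. The 12 probes may all measure the same transcript, and which of the 13 measures Gapdh was not tested, so they were not counted as members or as separate genes.

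Of the lactate genes, 1 passed the test. Ldha, the subunit of lactate dehydrogenase that favors making lactate, had levels of 6.63 to 6.79 on the BSA arrays. The Rspo2 arrays spanned 6.99 to 7.15 and the Wnt3a arrays 6.92 to 6.98, and the mean of the combination was 6.88 ± 0.12 (SD, n = 3), its lowest array at 6.76. The Rspo2 and Wnt3a arrays were all above BSA, and those of the combination overlapped it. The rise with Rspo2 was 0.33 ± 0.084 (SE, adjusted p = 0.0284), beside the median of 0.32 for probes as bright, and was 0.027 (adjusted p = 0.816) after quantile normalization. A second probe of Ldha, nearly as bright, gave 0.062 (adjusted p = 0.569) with Rspo2. The call of the first was lost without any 1 of the BSA arrays or without Rspo2 array 2 or 3 (adjusted p up to 0.104). Ldhb, the heart-type subunit, was well above background on 9 of the 12 arrays, passed the filter through Wnt3a and the combination, and had 0.10 (adjusted p = 0.662) with the combination. The lactate carriers Slc16a1 and Slc16a3 had 0.063 (adjusted p = 0.671) and -0.12 (adjusted p = 0.593).

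The pyruvate dehydrogenase kinases, which close the gate between glycolysis and mitochondrial oxidation, held opposite changes. Pdk1, the hypoxia-induced kinase, had levels of 1.13, 0.87 and 0.86 with BSA, 0.62, 0.77 and 0.61 with Rspo2, 0.37, 0.51 and 0.42 with Wnt3a and 0.17, 0.27 and 0.30 with both. The 4 groups did not overlap and stood in that order from high to low. The change was -0.29 ± 0.091 (SE, adjusted p = 0.055) with Rspo2, -0.52 ± 0.091 (SE, adjusted p = 0.00269) with Wnt3a and -0.71 ± 0.091 (SE, adjusted p = 0.000237) with the combination, a 1.63-fold fall. The combination and Wnt3a did not differ past the threshold, at -0.19 ± 0.091 (SE, adjusted p = 0.308), nor did the interaction pass it, at 0.098 ± 0.13 (SE, adjusted p = 0.646). A second probe of Pdk1 fell in all 3 comparisons, with changes of -0.30 (adjusted p = 0.0358), -0.36 (adjusted p = 0.00866) and -0.44 (adjusted p = 0.00218). Its calls with Wnt3a and with the combination were kept without any 1 array. With slide as a term the change with the combination was as large but not past the threshold, at -0.75 (adjusted p = 0.148). That fit adds up the differences within slides. Rspo2 array 1 was 0.33 below BSA, the Wnt3a arrays 0.25 below the Rspo2 arrays and the combination 0.17 below Wnt3a array 3.

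Pdk4, the kinase known for its induction by fasting, had levels of -1.61, -1.92 and -1.86 with BSA, -1.66, -1.51 and -1.47 with Rspo2, -1.48, -1.39 and -1.40 with Wnt3a and -1.42, -1.35 and -1.45 with both. The Wnt3a and combination arrays were all above BSA and overlapped each other. The rise was 0.37 ± 0.092 (SE, adjusted p = 0.0117) with Wnt3a and 0.39 ± 0.092 (SE, adjusted p = 0.00697) with the combination, kept without any 1 array and 0.19 (adjusted p = 0.739) for the latter with slide as a term. The other kinases were flat in comparison: Pdk2 had -0.01 (adjusted p = 0.947) and Pdk3 -0.05 (adjusted p = 0.641) with the combination, and Pdk3 -0.18 (adjusted p = 0.0442) after quantile normalization.

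**Figure D4:**
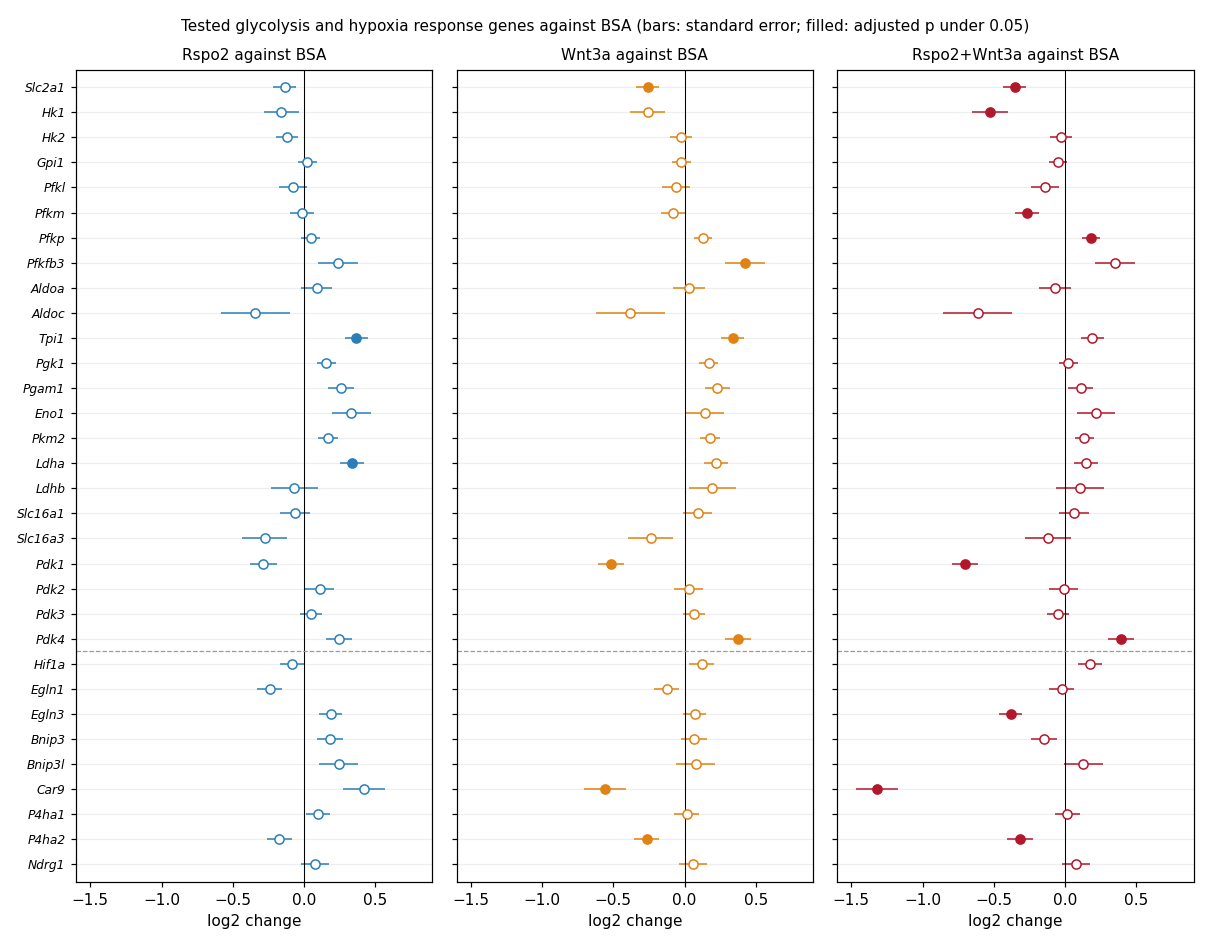
Log2 change against BSA (horizontal axis) of the 32 tested members, glycolysis above the dashed line and hypoxia response below it, for Rspo2, Wnt3a and the combination. Points are fitted differences of group means, bars their standard errors, and filled points have an adjusted p under 0.05. Car9 and Pdk1 have the largest falls with the combination, -1.32 and -0.71, and most other points lie within 0.5 of zero.

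A wider list of 58 other genes of the same pathways gave 42 tested genes, 18 of glucose metabolism and 24 of the hypoxia response. With Rspo2, 7 of the 42 rose and 3 fell, or 23.8% against 16.8% of all probes. With Wnt3a, 12 rose and 6 fell, or 42.9% against 31.5%, and with the combination 12 rose and 10 fell, or 52.4% against 39.2%. Among the genes around pyruvate, Pdp1, the phosphatase that reopens pyruvate dehydrogenase and so opposes the kinases, rose with the combination by 0.79 ± 0.067 (SE, adjusted p = 1.28e-05), and 0.80 (adjusted p = 0.0457) with slide as a term, while the pyruvate carboxylase gene Pcx fell, at -0.66 (adjusted p = 0.0011), and -0.59 (adjusted p = 0.364) with slide as a term. Both were chosen after their values were seen. Bpgm, which diverts a glycolytic intermediate to bisphosphoglycerate, had levels of 0.75, 1.01 and 0.92 with BSA, 1.45, 1.33 and 1.59 with Rspo2, 1.46, 1.47 and 1.67 with Wnt3a and 2.37, 2.27 and 2.07 with both. The treated arrays were all above BSA, and the combination above the single proteins. It rose by 0.56 (adjusted p = 0.016), 0.64 (adjusted p = 0.00253) and 1.34 (adjusted p = 1.11e-05), the last 1.13 (adjusted p = 0.0633) with slide as a term.

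Several genes of the hypoxia response also moved, in both directions. Bhlhe40, a repressor of transcription induced by hypoxia and by many other signals, had levels of 0.24, 0.36 and 0.33 with BSA, 0.54, 0.58 and 0.53 with Rspo2, 1.22, 1.26 and 0.88 with Wnt3a and 1.81, 1.96 and 1.98 with both. No 2 groups overlapped, and it rose with the combination by 1.61 ± 0.10 (SE, adjusted p = 1.43e-06), and 1.95 (adjusted p = 0.00134) with slide as a term. Angptl4, a secreted inhibitor of lipoprotein lipase, had levels of -3.32, -3.68 and -3.86 with BSA, -4.80, -4.79 and -4.89 with Rspo2, -6.35, -5.58 and -5.13 with Wnt3a and -4.83, -5.33 and -5.57 with both. All treated arrays were below BSA. It was well above background on all 3 BSA arrays, on 1 array each of Rspo2 and the combination and on 0 of Wnt3a. It was tested only through the BSA arrays, where it is highest. Its falls are therefore given as a description, and their p-values are not support for them. Set against the lowest signals of any probe well above background on the Wnt3a arrays, it was 3.20-fold lower with Wnt3a than with BSA. That is not a firm bound, since Angptl4 was not above background on Rspo2 arrays 1 and 2, at -4.80 and -4.79. The limma value (adjusted p = 0.000887) is that of the difference of the signals as read, -2.07, and not of this fold. With Rspo2 and the combination, each measured on 1 of 3 arrays, the differences of the signals as read were -1.21 (adjusted p = 0.0227) and -1.62 (adjusted p = 0.00131). A fit with slide as a term gave -1.18 (adjusted p = 0.202), -2.30 (adjusted p = 0.0673) and -2.41 (adjusted p = 0.0694) with Rspo2, Wnt3a and the combination, past no threshold, and the Rspo2 call was lost without any 1 of the BSA arrays or without Rspo2 array 2 or 3 (adjusted p up to 0.0831).

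Hif3a, a factor that can restrain Hif1a, had levels of -3.57, -2.55 and -2.24 with BSA, -3.99, -4.22 and -3.70 with Rspo2, -4.06, -4.02 and -3.53 with Wnt3a and -3.72, -3.84 and -3.88 with both. BSA array 1 lay within the treated arrays or close to them, and the other BSA arrays lay above. The changes were -1.18 (adjusted p = 0.026), -1.08 (adjusted p = 0.0167) and -1.03 (adjusted p = 0.0165). All 3 calls were lost with slide as a term, at -1.20 (adjusted p = 0.248), -1.28 (adjusted p = 0.357) and -1.56 (adjusted p = 0.331), and after quantile normalization, at -1.02 (adjusted p = 0.0662), -0.78 (adjusted p = 0.108) and -0.81 (adjusted p = 0.0765). Without BSA array 2 or 3 all 3 calls were lost (-0.91 and -0.75 for the combination, adjusted p 0.0587 and 0.0639), without Wnt3a array 2 that with Wnt3a, at -1.01 (adjusted p = 0.0589), and without Rspo2 array 2 or 3 that with Rspo2, at -1.05 and -1.32 (adjusted p 0.07 and 0.0675). Vegfa, the vascular growth factor, Ccng2, a cyclin that slows the cycle, and Cited2, which competes with Hif1a for its coactivator, fell with the combination, with changes of -0.65 (adjusted p = 0.000457), -0.76 (adjusted p = 0.000473) and -0.73 (adjusted p = 0.000392). They were chosen after their values were seen. Their differences between the combination and Wnt3a were -0.45 (adjusted p = 0.0211), -0.47 (adjusted p = 0.037) and -0.58 (adjusted p = 0.00898). They were the only wider-list genes to fall there, so with this choice their shared fall is no separate evidence. Of the 24 tested hypoxia genes of that list, 1 rose there, beside 2.49% of all probes lower and 1.78% higher. Against BSA, 5 of the 24 rose and 7 fell with the combination. Fitted with slide as a term, Vegfa, Ccng2 and Cited2 changed from BSA by -0.55 (adjusted p = 0.144), -0.72 (adjusted p = 0.245) and -0.72 (adjusted p = 0.212).

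**Figure D5:**
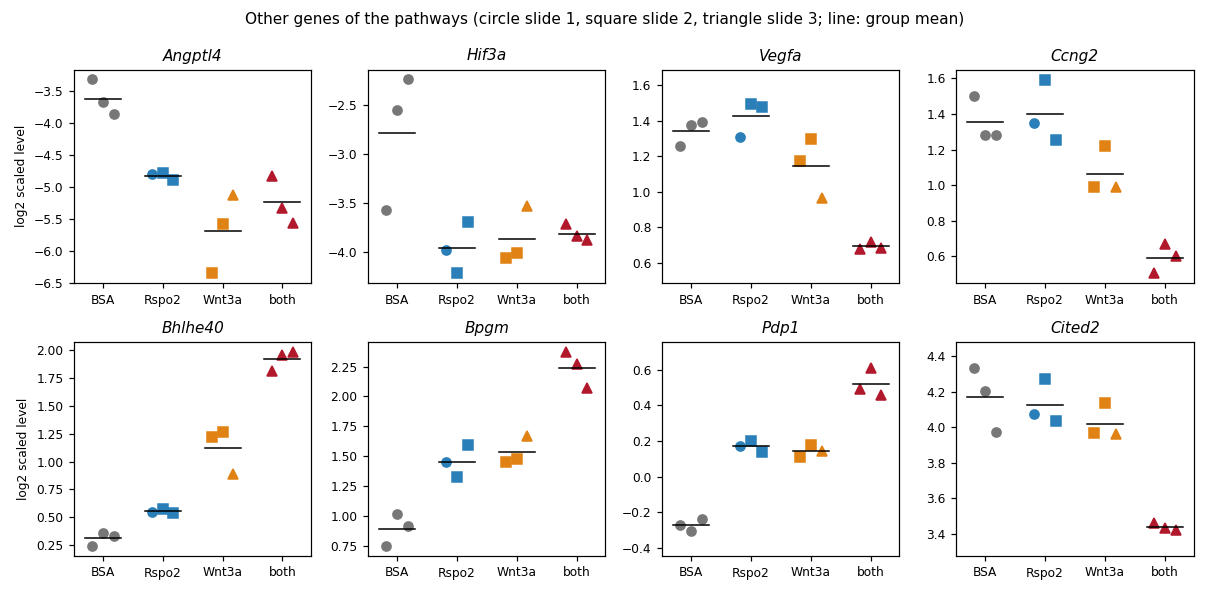
Level on each array (vertical axis, log2 intensity minus that of the array's 75th percentile, with axes that differ between panels) of 8 other genes of these pathways in the 4 treatments. Each symbol is 1 array, its shape the slide, and the line the group mean. Bhlhe40, Bpgm and Pdp1 are highest with both proteins, while Vegfa, Ccng2 and Cited2 are lowest there and Angptl4 and Hif3a are lower in all treatments than in the mean of BSA.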

How the data were processed

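C57MG cells of 4 groups, 3 arrays each, were compared on 1-color arrays with probes of 60 bases. The deposited intensity values were made by the authors with Agilent Feature Extraction 9.5.3.1 (per the submitters' processing notes), which subtracted background but set no common scale for the arrays. The series table they deposited holds ratio values, which the authors made by dividing by the 75th percentile of each array. Uneven and outlier spots were left out (1327 of 520548 values), spots of a probe were averaged, and log2 intensity was reduced by that of the 75th percentile of its array. A probe was tested when some group had it well above background on each of its 3 arrays (22751 probes). limma 3.58.1 (under R 4.3.3) was used, in 1 fit of 4 group means over all arrays, with Benjamini-Hochberg adjustment over all of them. Percentiles on the arrays were 774 to 1146 units, 51.3% to 64.2% of probes were well above background and 0 spots were saturated. The number of arrays limits the precision.

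The members, lists and tests were chosen with earlier results of these data known. Values on each array are given for members that changed at least 2-fold in any comparison and for up to 3 more per role with the largest change with the combination; wider-list genes are named where they changed at least 2-fold, and others as said. Of the 36 brightest probes of the members, 31 had an accession in RefSeq, all under the same gene, and those of Slc2a3, Hk1, Pdk1, Epas1 and Ndrg1 did not. Tried besides were other background corrections, scalings, filters, tests, slide and replicate terms, other probes of a gene and leaving out each array. Data were simulated with the spread of these arrays (22712 probes), with 100 probes given each size of change. The fit for the combination against BSA found 33 of 100 changes of 0.5 and 76 of 100 changes of 1 on the log2 scale. It made 11 calls among the unchanged probes. In the data 39.2% of all probes were called, so the adjusted threshold was stricter in the simulation. These shares therefore do not give the sensitivity of the reported fit. Figures were drawn with matplotlib 3.10.9 in Python 3.11.15.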

Additional observations from a re-analysis of the deposited data

Results flagged for a closer look

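For 3 members the effect of Rspo2 differed without and with Wnt3a, by the interaction term of the limma fit. For Car9 the interaction was -1.18 (adjusted p = 0.0113): Rspo2 gave 0.42 against BSA and -0.76 on top of Wnt3a. For Egln3 it was -0.64 (adjusted p = 0.0119), with 0.19 and -0.45. For Tpi1 it was -0.51 (adjusted p = 0.0264), with 0.37 and -0.15, beside a median interaction of -0.38 over the 297 probes of like brightness. Over all probes 8.90% had such an interaction, 3.58% positive and 5.31% negative. With slide as a term the values were -1.45 (adjusted p = 0.0405), -0.75 (adjusted p = 0.0799) and -0.38 (adjusted p = 0.29), and after quantile normalization -1.32 (adjusted p = 0.0086), -0.64 (adjusted p = 0.0108) and -0.17 (adjusted p = 0.262). All 3 interactions lost their call with normexp background correction, without a filter on dim probes and by the methods' adjusted t-test. Groups of 3 arrays are too small for a test of single outlying arrays.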

How the results depend on the processing

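The counts of members changed were 2 with Rspo2, 7 with Wnt3a, 9 with the combination, 2 for the combination against Wnt3a and 3 for the interaction. With normexp background correction they were 0, 0, 1, 0 and 0 (2, 2, 3, 1 and 3 at an unadjusted p under 0.05). The median spread within groups was then 0.27 on the log2 scale against 0.15, and 0.0176%, 0.479%, 4.62%, 0.136% and 0.0132% of all probes were called. With quantile normalization they were 4 with Rspo2 and 16 with the combination, or 12.5% and 50% against 12.1% and 36.5% of all probes. Without a filter on dim probes they were 0 with Rspo2, 3 with Wnt3a and 0 for the combination against Wnt3a and for the interaction (9, 11, 2 and 8 unadjusted), with 0.403%, 11.1%, 1.03% and 0.726% of all probes. The methods' t-test gave 6 with Rspo2 and 9 for the interaction unadjusted, or 18.8% and 28.1% against 24.2% and 23.3% of all probes, and after Benjamini-Hochberg adjustment 0, 1, 4, 0 and 0, with 0.00879%, 6.79%, 14.7%, 0.0703% and 0.576% of all probes. An intensity trend with a robust prior gave 4 with Rspo2, or 12.5% against 20.1%. With only the arrays of the groups compared the counts were 0 with Rspo2, 4 with Wnt3a and 0 for the combination against Wnt3a (7, 10 and 2 unadjusted), with 5.66%, 25.4% and 2.16% of all probes. With slide as a term they were 0, 0 and 1 against BSA and 1 for the interaction, with 0.431%, 0.796%, 2.51% and 0.743%. Those that were also at least 2-fold were 0, 0, 1, 0 and 1, with 0.721%, 2.52%, 5.08%, 0.747% and 1.93%. Fitted without each array in turn, the counts ranged from 0 to 3 with Rspo2, 3 to 7 with Wnt3a, 7 to 10 with the combination, 0 to 2 for the combination against Wnt3a and 2 to 5 for the interaction, while 2.05% to 18.5%, 21.8% to 31.9%, 29.6% to 42%, 2.04% to 9.41% and 2.78% to 12.8% of all probes were called. The Rspo2 count was 0 without BSA array 1, 2 or 3 or Rspo2 array 2 or 3. The Wnt3a count was 4 without BSA array 1, 2 or 3 and 3 without Wnt3a array 1. The count for the combination against Wnt3a was 0 without combination array 2 and 1 without combination array 3, and the interaction count was 5 without combination array 1. The cause of these differences was not tested.

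Replicate numbers did not pair the arrays: deviations from the group means of arrays with the same number correlated at -0.412 to 0.272, and 4 of 18 pairs exceeded 0.1. With the replicate block the count was 0 with Rspo2 (7 unadjusted; 3.56% of all probes called), and it stayed within 1.5 times in the other 4 comparisons, at 5, 7, 2 and 2.

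Among the values that passed the threshold as reported, direction turned in 6 cases. With normexp, Ldha with Rspo2 was -0.016, Angptl4 with Rspo2 0.30 and the Angptl4 interaction -0.51. Tpi1 with Wnt3a was -0.033 after quantile normalization, and Pfkp with the combination was -0.16 both for the mean of its probes and for its second probe. Members that had not passed it turned and fell after quantile normalization in 5 cases, Aldoa (-0.37, adjusted p = 0.00813) and Pgk1 (-0.23, adjusted p = 0.0428) with Wnt3a, and Pgk1, Pgam1 and Ldha (-0.23, adjusted p = 0.0222) with the combination. The calls of Car9, Pdk1 and Bhlhe40 with the combination were lost under 1, 1 and 0 of the 16 settings other than leaving out an array. The other members called with the combination lost it more often: Pfkp under 9, Hk1 under 5, Pfkm and P4ha2 under 4, and Slc2a1, Egln3 and Pdk4 under 3. Of the calls with 1 protein, Ldha with Rspo2 was lost under 10 and Pfkfb3 with Wnt3a under 9. Members near background, such as Ldhb, and the 4 not tested are limited by signal over background.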
